A study of Mus musculus with 6 samples.

Results

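The genes of the calcineurin and NFAT pathway were compared between Th17 cells carrying wild-type (WT) RORγt and Th17 cells carrying RORγt N275D, in which 1 amino acid of the transcription factor is substituted. The 10 genes are *Stim1* and *Orai1* for calcium entry, *Ppp3ca*, *Ppp3cb* and *Ppp3r1* for calcineurin, *Rcan1* for its regulator, and *Nfatc1*, *Nfatc2*, *Nfatc3* and *Nfat5* for the transcription factors. They were taken by gene symbol, a rule that uses no measured value, although the set was chosen with earlier results of these data known. All 10 of 10 symbols were found among the 16244 genes of the table. Naive CD4+ T cells came from WT C57BL/6 mice or from knockin mice with the N275D substitution on a C57BL/6 background. The methods name the spleen only for donors of another experiment and give no tissue for the RNA-seq. In both genotypes the cells were stimulated with anti-CD3 and anti-CD28 for 3 days under pathogenic Th17 conditions, which the methods describe as TGF-β, IL-6, IL-23 and IL-1β with antibodies against IL-4 and IFN-γ, whereas the account of the RNA-seq names IL-6, IL-1β and IL-23. RNA-seq was made from 3 libraries per genotype. The WT mice were purchased and are listed as C57BL/6NJ, and the knockin mice came from another laboratory without a stated substrain. Effects of the colony, of the substrain and of the substitution cannot be told apart. The labels do not give the age of these mice, for which the methods state only a general range of young adult ages for the study, nor whether the 3 libraries of a genotype came from separate animals or cultures, and the methods do not say whether the RNA-seq donors carried 1 or both knockin alleles. The p-values therefore measure the spread between these libraries, which may be technical.

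Calcineurin is the phosphatase through which a rise in cytosolic calcium reaches the nucleus of a T cell. Engagement of the T cell receptor empties the calcium store of the endoplasmic reticulum, STIM proteins sense the loss and open ORAI channels in the plasma membrane, and calcium-bound calmodulin switches calcineurin on. Calcineurin then removes phosphates from NFATc proteins, which enter the nucleus and act with other factors on cytokine and activation genes until kinases rephosphorylate them. NFAT5 shares the DNA-binding domain of the family but lacks the calcineurin docking region and is known for the response to osmotic stress. Because the pathway is switched by calcium and dephosphorylation, transcript levels do not measure its activity.

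Libraries held between 17659035 and 18510878 reads on genes. Values are the authors' normalized reads, in which the reads of every gene in a library were scaled by the same factor. WT replicate 3 stood apart from the other WT libraries: its median chi-square against them was 2.96 and 3.05 times the value of counting noise, against 1.38 for WT replicates 1 and 2 and at most 1.54 among the RORγt N275D libraries. Among the 10 genes, WT replicate 3 was the highest WT library for 5 (*Nfatc1*, *Nfatc2*, *Rcan1*, *Orai1* and *Stim1*) and the lowest for 4 (*Nfatc3*, *Ppp3ca*, *Ppp3cb* and *Ppp3r1*), so values without it are given below where it changed a call. The labelled cell type was checked with defining markers. The Th17 cytokine genes *Il17a* and *Il17f* were abundant in both genotypes, and the Th17 chemokine receptor gene *Ccr6* had 2649 ± 23.6 normalized reads in WT against 3450 ± 71.9 in RORγt N275D libraries (SD, n = 3 each). Gene counts cannot show the N275D substitution itself. The summed level of 7 B cell markers was 1130 to 1168 normalized reads in WT against 1722 to 1779 in RORγt N275D libraries, most of it from *Ebf1* (986 ± 16.1 and 1479 ± 62.3, SD, n = 3 each), and 5 of the 6 that were tested were higher in RORγt N275D. The defining B cell gene *Ms4a1* was low in both (0.34 ± 0.58 and 5.96 ± 3.39, SD, n = 3 each), and none of the 7 was at 0 in every library. The 5 T cell markers summed to 17120 to 17711 in WT and 15971 to 16154 in RORγt N275D libraries, the myeloid markers to 51.5 to 63.6 and 51.2 to 63.9, and the CD8 and natural killer cell markers to 148 to 171 and 215 to 233. *Cd4* was the largest part of the T cell sum (9143 ± 331 and 7591 ± 26.1). *Cd4* and *Cd3e* were lower in RORγt N275D, *Cd28* was higher, and *Cd3d* and *Cd3g* did not pass the test. Of the 2 myeloid markers tested, *Adgre1* was lower (22.6 ± 3.22 and 6.64 ± 3.05) and *Cd14* higher (11.3 ± 3.56 and 22.9 ± 0.96, SD, n = 3 each throughout). The part of these markers in the differences below was not tested, and in bulk RNA fewer cells of a type and less RNA per cell cannot be told apart.

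RORγt N275D Th17 cells had fewer transcripts of *Nfatc1*, *Rcan1*, *Orai1* and *Nfatc2* than WT cells. *Nfatc1* was 2.11-fold lower, *Rcan1* 1.51-fold, *Orai1* 1.44-fold and *Nfatc2* 1.26-fold lower by their means. *Nfatc3*, *Nfat5*, *Ppp3cb* and *Ppp3r1* did not pass the test, and *Stim1* and *Ppp3ca* passed it narrowly, *Stim1* lower and *Ppp3ca* higher. Genes were tested by limma on log2(normalized reads + 1) over the 11908 genes whose mean was 10 or more, a filter that all 10 genes passed, and called at an adjusted p under 0.05. The genotypes differed widely: 50.9% of all genes tested were called, 24.7% as higher and 26.1% as lower in RORγt N275D. Of the 10 genes 6 were called, 1 higher and 5 lower, so the share called is close to that of all genes. The genotypes did not overlap for 6 of the 10 genes, against 57.7% of all genes tested. A decrease of at least 2-fold was rarer, with 0.857% of all genes called, and 1 of the 10 genes, *Nfatc1*, was among them. The median log2 fold change of the 10 genes was -0.07, and that of all genes tested was -0.003.

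**Figure D1:**
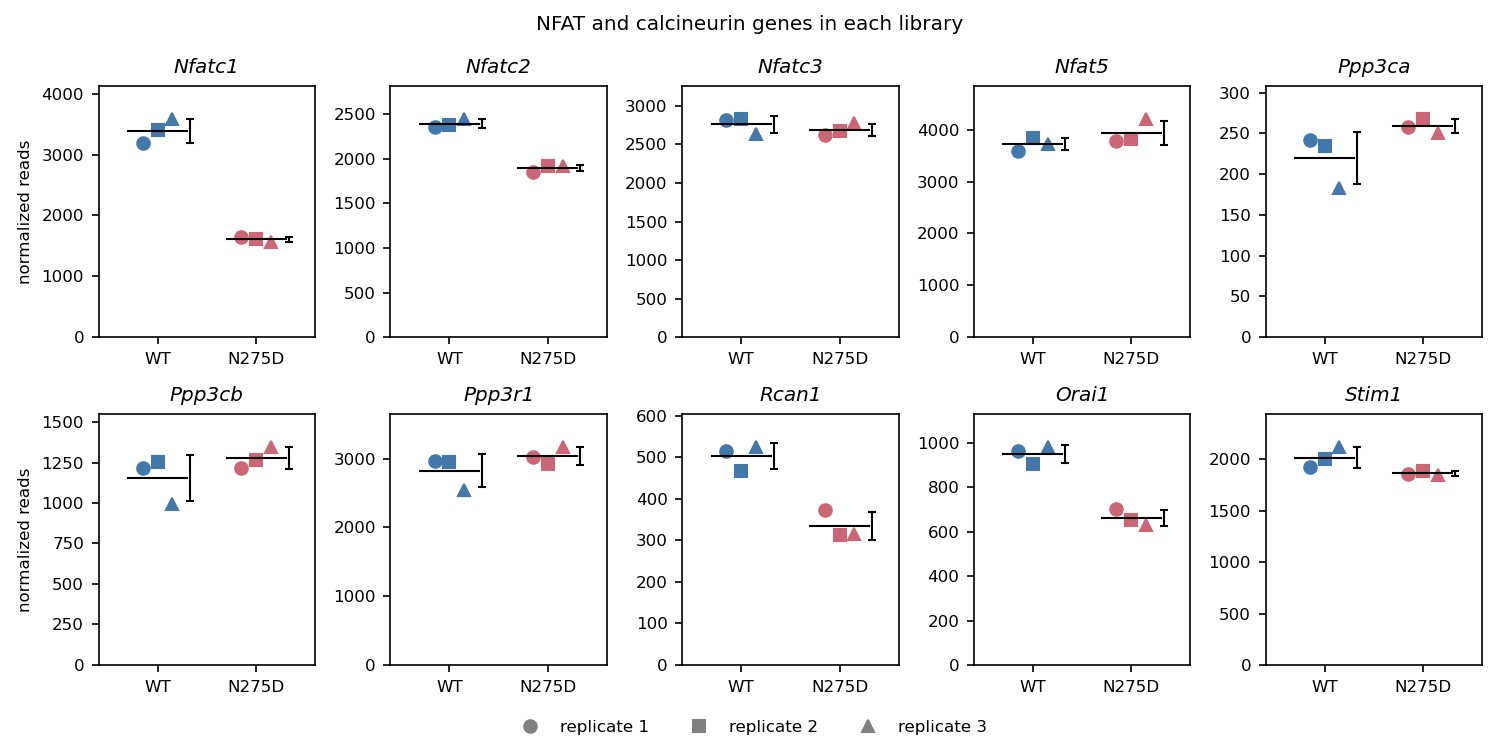
Normalized reads of each of the 10 genes in the 3 WT libraries (blue) and the 3 RORγt N275D libraries (red), with the replicate given by the symbol, the mean as a line and the SD as a bar beside it; each vertical axis starts at 0. *Nfatc1* separates most, with WT libraries from 3189 to 3590 and RORγt N275D libraries from 1570 to 1648 normalized reads, and the triangle of WT replicate 3 lies below the other WT libraries for *Ppp3ca*, *Ppp3cb* and *Ppp3r1*.

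*Stim1*, the calcium sensor of the endoplasmic reticulum (GRCm38 chromosome 7, 102261514 to 102437319, plus strand), had 1922, 2006 and 2126 normalized reads in WT replicates 1, 2 and 3. In RORγt N275D replicates 1, 2 and 3 it had 1855, 1891 and 1850. Every WT library lay above every RORγt N275D library, by a small margin. The log2 fold change of *Stim1* was -0.11 (standard error, SE, 0.04, 95% interval -0.21 to -0.02, limma adjusted p = 0.0468). The call was kept in 5 of 17 alternative analyses, and it was lost by edgeR (adjusted p = 0.0604) and by DESeq2 (adjusted p = 0.0946) on the recovered reads. Without WT replicate 3 the log2 fold change was -0.07 (limma adjusted p = 0.108), and the call was also lost without WT replicate 2 (0.0774) and without RORγt N275D replicates 1 (0.122), 2 (0.0858) or 3 (0.124).

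*Orai1*, the pore subunit of the channel that STIM1 opens (chromosome 5, 123015074 to 123030452, plus strand), showed a larger difference. It had 965, 907 and 984 normalized reads in WT replicates 1, 2 and 3. The RORγt N275D libraries had, in the same order, 701, 654 and 631. The lowest WT library was well above the highest RORγt N275D library. The log2 fold change of *Orai1* was -0.52 (SE 0.06, limma adjusted p = 1.36e-06), and it was called in 17 of 17 alternatives, with log2 fold changes from -0.57 to -0.49.

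Of the paralogues of the channel and the sensor, *Orai2* was called and *Orai3* and *Stim2* were not. *Orai2* had 543 ± 27.3 normalized reads in WT against 474 ± 5.15 in RORγt N275D cells (SD, n = 3 each), and its log2 fold change was -0.20 (limma adjusted p = 0.0123; -0.16 and 0.0588 without WT replicate 1). *Orai3* had 381 ± 29.5 and 397 ± 5.36 normalized reads (SD, n = 3 each), giving a log2 fold change of 0.06 with a 95% interval of -0.08 to 0.21 that includes 0. *Stim2*, which senses smaller losses of stored calcium than STIM1, had 808 ± 21.5 and 759 ± 46.1 (SD, n = 3 each), giving a log2 fold change of -0.09 with a 95% interval of -0.21 to 0.03. The ratio of *Orai1* to *Stim1* was 0.472 in WT and 0.355 in RORγt N275D cells (geometric means of n = 3 each). On the log2 scale this ratio was -0.99, -1.15 and -1.11 in WT and -1.404, -1.53 and -1.55 in RORγt N275D replicates 1, 2 and 3, without overlap. An exact two-sided permutation test of 3 libraries against 3 gave p = 0.1, the smallest it allows, and an adjusted p = 0.14 over the 7 ratios compared.

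The calcineurin genes lay in the other direction by their means, but the differences were smaller without WT replicate 3. *Ppp3ca*, which encodes the alpha catalytic subunit (chromosome 3, 136669714 to 136937727, plus strand), had 241, 235 and 183 normalized reads in WT replicates 1, 2 and 3. In RORγt N275D replicates 1, 2 and 3 it had 258, 268 and 251. WT replicate 3 was far below the other 2 WT libraries, which were close to the RORγt N275D libraries. The log2 fold change of *Ppp3ca* was 0.25 (SE 0.10, 95% interval 0.04 to 0.45, limma adjusted p = 0.0460). Without WT replicate 3 it was 0.12 (limma adjusted p = 0.233), and the adjusted p was 0.0958, 0.134 and 0.0744 without RORγt N275D replicates 1, 2 and 3. The call was kept in 8 of 17 alternatives.

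*Ppp3cb*, for the beta catalytic subunit (chromosome 14, 20499364 to 20546573, minus strand), had 1213, 1255 and 995 normalized reads in WT replicates 1, 2 and 3. The RORγt N275D libraries had, in the same order, 1218, 1266 and 1349. The genotypes overlapped. Its log2 fold change was 0.15 (95% interval 0.001 to 0.30, limma adjusted p = 0.0860), 0.05 without WT replicate 3 (limma adjusted p = 0.397) and 0.22 without WT replicate 2 (limma adjusted p = 0.0208). *Ppp3r1*, for the calcium-binding regulatory subunit (chromosome 11, 17159298 to 17200380, plus strand), had 2968, 2957 and 2544 normalized reads in WT against 3025, 2917 and 3177 in RORγt N275D replicates 1, 2 and 3, and again overlapped. Its log2 fold change was 0.11 (95% interval -0.01 to 0.23, limma adjusted p = 0.107), and 0.04 without WT replicate 3 (limma adjusted p = 0.430). *Ppp3r1* overlaps *Wdr92* on the same strand, so that its count is uncertain as far as shared exons are concerned. *Wdr92* itself had 1280 ± 44.6 and 1276 ± 69.3 normalized reads (SD, n = 3 each).

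The gamma catalytic subunit gene *Ppp3cc* was higher in RORγt N275D cells and was called in 17 of 17 alternatives. It had 1081, 1128 and 1054 normalized reads in WT against 1434, 1382 and 1403 in RORγt N275D replicates 1, 2 and 3, without overlap and with WT replicate 3 near the others. Its log2 fold change was 0.37 (SE 0.05, limma adjusted p = 6.52e-06). Among the normalized reads of the 3 catalytic subunit genes, *Ppp3ca* held 8.89% ± 0.67 in WT and 8.80% ± 0.42 in RORγt N275D cells, *Ppp3cb* 46.8% ± 1.91 and 43.4% ± 1.53, and *Ppp3cc* 44.3% ± 2.53 and 47.8% ± 1.32 (SD, n = 3 each). Their sum was 2535, 2618 and 2232 normalized reads in WT against 2909, 2916 and 3003 in RORγt N275D replicates 1, 2 and 3. The ratio of *Ppp3ca* to *Ppp3cb* (0.190 in WT and 0.203 in RORγt N275D) and that of *Ppp3r1* to both (2.06 and 1.98) overlapped between the genotypes, with exact two-sided permutation p = 0.3 and 0.5 (adjusted p = 0.35 and 0.5 over 7 ratios). *Ppp3r2*, the other regulatory subunit gene, was not analysed here.

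**Figure D2:**
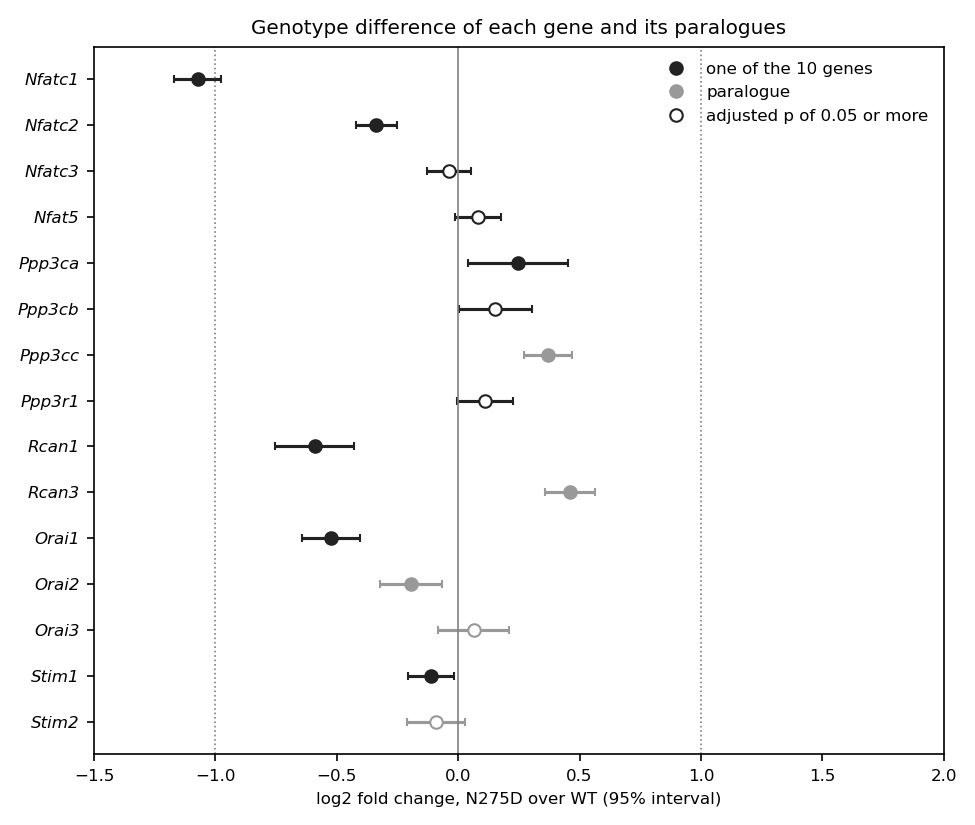
Log2 fold change of RORγt N275D over WT with its 95% interval from limma, for the 10 genes (black) and 5 paralogues (gray); open circles did not pass an adjusted p of 0.05, and dotted lines mark 2-fold. *Nfatc1* lies at -1.07, *Rcan1* at -0.59 and *Orai1* at -0.52, while the paralogues *Rcan3* (0.46) and *Ppp3cc* (0.37) lie on the other side of 0.

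*Rcan1* encodes a calcineurin-binding regulator that restrains the phosphatase and is itself a known NFAT target through an internal promoter (chromosome 16, 92391951 to 92466169, minus strand). It had 517, 467 and 526 normalized reads in WT replicates 1, 2 and 3. In RORγt N275D replicates 1, 2 and 3 it had 373, 314 and 316. All WT libraries were above all RORγt N275D libraries. The log2 fold change of *Rcan1* was -0.59 (SE 0.08, limma adjusted p = 1.06e-05), called in 17 of 17 alternatives with values from -0.67 to -0.55. The paralogue *Rcan3* went the other way, with 1005 ± 49.2 normalized reads in WT against 1383 ± 15.4 in RORγt N275D cells (SD, n = 3 each), so that its log2 fold change was 0.46 (SE 0.05, limma adjusted p = 1.09e-06). *Rcan2* was not analysed here. The ratio of *Rcan1* to the sum of *Ppp3ca* and *Ppp3cb* was 0.368 in WT and 0.217 in RORγt N275D cells, that is log2 values of -1.49, -1.67 and -1.16 against -1.98, -2.29 and -2.34 in replicates 1, 2 and 3. These did not overlap (exact two-sided permutation p = 0.1, adjusted p = 0.14 over 7 ratios), and WT replicate 3 had the highest of them.

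Promoters are shown because NFAT proteins recognise the core GGAAA and *Rcan1* has an upstream and an internal start. RefSeq promoter sequences of GRCm38.p6 each ran from 250 bases before to 50 after a start. None was matched for *Nfatc1* or *Ppp3ca*, and the other 8 of the 10 genes had 11 windows. They are written 5′ to 3′ on the strand of the gene, with GGAAA on either strand (GGAAA or TTTCC) in capitals. The 5 windows below are both of *Rcan1*, the outermost of *Nfatc2*, and those of *Orai1*, a gene that was lower without a match, and *Ppp3cb*, whose window has the most matches of the 11 and which did not pass the test. They lie at chr16:92466120-92466419 and chr16:92400029-92400328 (minus strand), chr2:168601608-168601907 (minus), chr5:123014824-123015123 (plus) and chr14:20546524-20546823 (minus).
Rcan1, upstream start: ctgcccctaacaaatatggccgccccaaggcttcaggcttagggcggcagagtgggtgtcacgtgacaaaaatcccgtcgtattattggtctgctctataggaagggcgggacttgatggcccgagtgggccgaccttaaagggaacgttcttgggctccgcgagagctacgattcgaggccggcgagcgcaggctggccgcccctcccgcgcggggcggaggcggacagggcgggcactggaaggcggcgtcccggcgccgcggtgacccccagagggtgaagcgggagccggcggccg
Rcan1, internal start: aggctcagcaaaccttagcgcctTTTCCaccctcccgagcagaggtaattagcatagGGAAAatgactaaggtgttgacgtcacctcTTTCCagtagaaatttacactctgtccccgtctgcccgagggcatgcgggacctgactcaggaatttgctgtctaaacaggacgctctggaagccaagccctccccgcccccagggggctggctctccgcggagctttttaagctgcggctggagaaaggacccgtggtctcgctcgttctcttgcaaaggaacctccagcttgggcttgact
Nfatc2: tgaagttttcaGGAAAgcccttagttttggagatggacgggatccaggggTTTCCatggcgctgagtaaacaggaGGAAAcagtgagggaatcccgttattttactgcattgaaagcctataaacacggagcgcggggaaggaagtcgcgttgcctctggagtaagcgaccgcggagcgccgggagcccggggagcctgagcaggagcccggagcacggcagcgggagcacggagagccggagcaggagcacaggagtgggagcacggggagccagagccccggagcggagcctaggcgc
Orai1: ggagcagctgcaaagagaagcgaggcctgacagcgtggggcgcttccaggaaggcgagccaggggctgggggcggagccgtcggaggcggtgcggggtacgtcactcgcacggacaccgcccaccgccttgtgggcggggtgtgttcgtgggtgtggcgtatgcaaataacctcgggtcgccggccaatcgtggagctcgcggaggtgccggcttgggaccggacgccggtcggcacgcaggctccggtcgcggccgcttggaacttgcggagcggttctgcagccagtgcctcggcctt
Ppp3cb: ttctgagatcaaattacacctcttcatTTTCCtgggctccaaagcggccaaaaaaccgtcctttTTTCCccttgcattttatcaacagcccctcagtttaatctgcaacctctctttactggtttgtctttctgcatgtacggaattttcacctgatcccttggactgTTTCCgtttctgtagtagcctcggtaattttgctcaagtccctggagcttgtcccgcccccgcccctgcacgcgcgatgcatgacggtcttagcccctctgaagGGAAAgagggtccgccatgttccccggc

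The upstream *Rcan1* window held 0 matches to GGAAA and the internal one 3. The count per gene does not separate transcripts from the 2 starts, so the values of *Rcan1* cover both. The *Nfatc2* window shown held 3 matches and its other window 1, that of *Orai1* 0 and that of *Ppp3cb* 4. At least 1 match was found in 61.5% of the 32544 distinct promoters of the same length, at least 3 in 9.44% and at least 4 in 2.65%. *Nfat5* had 2 matches, the 2 *Nfatc3* windows 1 and 0, and *Stim1* and *Ppp3r1* 0. The nuclear receptor motif AGGTCA was in 0 of the 11 windows, against 16.2% of all promoters. The hypoxia response core, searched as ACGTG and as GCGTG on both strands, was also counted. ACGTG was found at 1 place in the upstream *Rcan1* window and at 1 place in 1 *Nfatc3* window, both as the palindrome CACGTG, which matches on both strands (19.7% of all promoters held it), and GCGTG matched 2 times in the *Orai1* window and 1 time each in windows of *Ppp3cb*, *Nfat5*, *Nfatc3*, *Stim1* and *Ppp3r1* (32.6% of all promoters held it). A match is a description of these letters and not a site.

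The NFAT transcription factor genes did not move together. *Nfatc2* (chromosome 2, 168476410 to 168601657, minus strand) encodes NFAT1, an NFATc protein that resting T cells already contain. It had 2356, 2375 and 2447 normalized reads in WT replicates 1, 2 and 3. The RORγt N275D libraries had, in the same order, 1851, 1914 and 1917. The replicates were close together and the genotypes did not overlap. Its log2 fold change was -0.34 (SE 0.04, limma adjusted p = 4.26e-06), called in 17 of 17 alternatives with values from -0.35 to -0.28.

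*Nfatc3*, which encodes NFAT4 (chromosome 8, 106058818 to 106130537, plus strand), had 2814, 2833 and 2630 normalized reads in WT against 2619, 2669 and 2777 in RORγt N275D replicates 1, 2 and 3. The genotypes overlapped. Its log2 fold change was -0.037 (95% interval -0.13 to 0.05, limma adjusted p = 0.491), and quantile normalization gave 0.036, so it has no direction here. *Nfatc3* overlaps *Esrp2* on the opposite strand, a gene with 17.97 ± 4.37 and 26.5 ± 8.26 normalized reads (SD, n = 3 each). *Nfat5* (chromosome 8, 107293435 to 107379517, plus strand) had 3597, 3834 and 3726 normalized reads in WT against 3774, 3827 and 4212 in RORγt N275D replicates 1, 2 and 3. These overlapped as well, with a log2 fold change of 0.08 (95% interval -0.01 to 0.18, limma adjusted p = 0.145). *Nfatc4* was near the floor at 4.69 ± 2.57 and 3.33 ± 1.17 normalized reads (SD, n = 3 each) and was not tested.

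*Nfatc1* encodes NFAT2, whose gene T cell activation itself induces through NFAT in an autoregulatory loop (chromosome 18, 80606205 to 80713071, minus strand). It had 3189, 3399 and 3590 normalized reads in WT replicates 1, 2 and 3. In RORγt N275D replicates 1, 2 and 3 it had 1648, 1611 and 1570. The lowest WT library was far above the highest RORγt N275D library. The log2 fold change of *Nfatc1* was -1.07 (SE 0.05, 95% interval -1.17 to -0.98, limma adjusted p = 2.64e-11), called in 17 of 17 alternatives with values from -1.12 to -1.02. Of all 11908 genes tested, 83 including *Nfatc1* had a log2 fold change this low or lower, which is 0.697%. *Rcan1* stood at 2.78%, *Orai1* at 3.66% and *Nfatc2* at 9.62% on the same count.

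The NFATc transcripts were made up in different proportions in the libraries of the 2 genotypes. *Nfatc1* held 39.7% ± 1.64 of the normalized reads of *Nfatc1*, *Nfatc2* and *Nfatc3* in WT and 26.0% ± 0.94 in RORγt N275D cells (SD, n = 3 each). *Nfatc3* held 32.3% ± 1.74 and 43.4% ± 0.81, and *Nfatc2* 28% ± 0.36 and 30.6% ± 0.32 (SD, n = 3 each). The sum of the 3 was 8359, 8607 and 8666 normalized reads in WT against 6118, 6194 and 6264 in RORγt N275D replicates 1, 2 and 3. *Nfatc1* had 1.42 times the reads of *Nfatc2* in WT and 0.850 times in RORγt N275D cells, and 1.23 and 0.599 times those of *Nfatc3*. The ratio of *Nfatc2* to *Nfatc3* was 0.868 and 0.705. None of these 3 ratios overlapped between the genotypes (exact two-sided permutation p = 0.1 each, the smallest possible, adjusted p = 0.14 over 7 ratios).

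**Figure D3:**
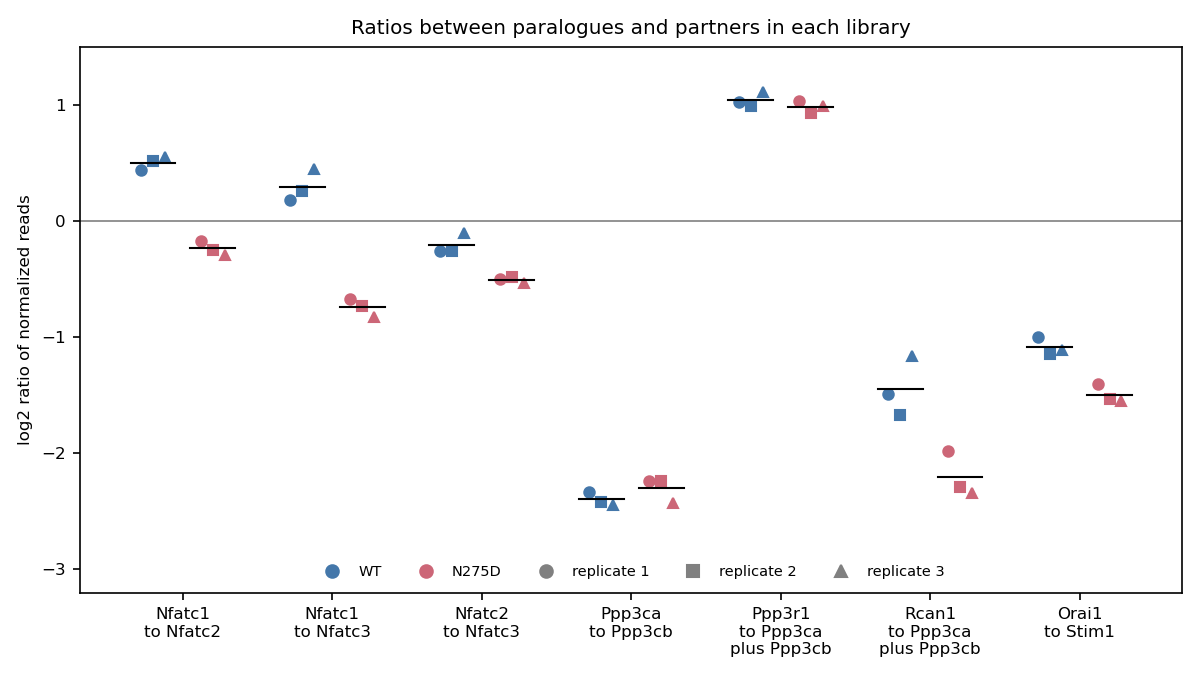
Log2 ratio of normalized reads for 7 pairs of paralogues or partners in each WT library (blue) and RORγt N275D library (red), with the replicate given by the symbol and the mean as a line; 0 marks equal reads. The log2 ratio of *Nfatc1* to *Nfatc2* lies between 0.44 and 0.55 in WT and between -0.29 and -0.17 in RORγt N275D libraries, while the ratios among calcineurin subunits overlap.

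Levels of different genes were compared as normalized reads per kb of exon, with the lengths of the GENCODE M21 annotation. *Ppp3r1* was the highest of the 10 genes in both genotypes, at 987 ± 84.5 per kb in WT and 1063 ± 45.6 in RORγt N275D cells, and *Ppp3ca* the lowest, at 45.9 ± 6.72 and 54.0 ± 1.79 (SD, n = 3 each). In WT cells the order below *Ppp3r1* was *Orai1* (508 ± 21.5), *Nfatc1* (457 ± 27.0), *Stim1* (454 ± 23.0), *Nfatc3* (447 ± 18.2), *Nfatc2* (286 ± 5.75), *Nfat5* (278 ± 8.87), *Ppp3cb* (241 ± 29.2) and *Rcan1* (181 ± 11.5 per kb; SD, n = 3 each). The WT libraries of *Nfatc1*, *Stim1* and *Nfatc3* overlapped, as did those of *Nfatc2* and *Nfat5*. In RORγt N275D cells *Nfatc1* stood at 217 ± 5.25 per kb, at place 8 instead of 3, next to *Nfatc2* (226 ± 4.46), whose libraries overlapped with it (SD, n = 3 each). *Nfatc3* (436 ± 13.1) and *Stim1* (419 ± 5.06) followed *Ppp3r1* there and overlapped, and *Orai1* (353 ± 19.0) was at place 4 (SD, n = 3 each).

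The genes with the most similar profiles over the 6 libraries were found by the smallest root mean square difference of log2 values, each centred on the mean of its gene. For *Nfatc1* these were *Stra6* (0.03), *Ehd3* (0.05) and *Id3* (0.06), with log2 fold changes of -1.06, -1.15 and -1.16. For *Ppp3ca* they were *Scamp1* (0.04), *Med7* (0.05) and *Rnpc3* (0.05), with log2 fold changes of 0.30, 0.19 and 0.29. Of the other 9 genes, *Rcan1* was nearest to *Nfatc1* (0.26), followed by *Orai1* (0.28), and *Ppp3cb* (0.08) and *Ppp3r1* (0.11) were nearest to *Ppp3ca*. The points share the same 6 libraries, and for *Ppp3ca* likeness includes the low value of WT replicate 3.

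Other genes of the pathway were described from lists written from general knowledge, with earlier results of these data known. Of 20 genes for calcium entry and release, 6 were called higher, 4 lower and 10 neither, so that the share called was close to the 50.9% of all genes called. Their median log2 fold change was 0.07 beside -0.003 for all genes tested. *Atp2b4*, a plasma membrane calcium pump that exports calcium, rose from 2663 ± 76.1 to 3813 ± 66.1 normalized reads (log2 fold change 0.52, limma adjusted p = 2.00e-08). *Saraf*, which inactivates store-operated calcium entry, had a log2 fold change of 0.38 (2518 ± 74.4 and 3288 ± 27.2; limma adjusted p = 6.61e-07), and the store release channel *Itpr2* one of 0.29 (383 ± 39.9 and 469 ± 28.8; limma adjusted p = 0.00487). Of related genes, *Itpr1* (4097 ± 78.9 and 3988 ± 45.8) and *Atp2b1* (2439 ± 151 and 2503 ± 61.1) were not called. *Itpr3* was called higher (log2 fold change 0.15, limma adjusted p = 0.0104). *Kcna3*, a potassium channel that helps sustain the driving force for calcium, fell from 925 ± 89.0 to 694 ± 25.8 (log2 fold change -0.41, limma adjusted p = 6.40e-05). The potassium channel gene *Kcnn4* was not called (4281 ± 198 and 4130 ± 76.6, log2 fold change -0.05, limma adjusted p = 0.307). *Atp2a2*, the pump that refills the store, fell from 15854 ± 167 to 12548 ± 240 normalized reads (log2 fold change -0.34, limma adjusted p = 3.23e-07; SD, n = 3 each throughout).

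Again beside 50.9% of all genes called, of the 10 other genes analysed (of 12 listed) for calcineurin subunits, calmodulins and inhibitors, 4 were called higher, 4 lower and 2 neither, and their median log2 fold change was -0.05. The higher genes included *Chp1*, a calcineurin-homologous protein that inhibits the phosphatase, at 2239 ± 98.5 and 3235 ± 90.0 normalized reads (log2 fold change 0.53, limma adjusted p = 5.23e-08), beside *Rcan3* and *Ppp3cc*. *Cabin1*, a calcineurin-binding inhibitor, was lower at 4216 ± 153 and 3418 ± 75.5 (log2 fold change -0.30, limma adjusted p = 9.89e-06). The calmodulin gene *Calm2* was lower at 5169 ± 88.7 and 4426 ± 196 (log2 fold change -0.22, limma adjusted p = 0.000188). The anchoring protein gene *Akap5* was low and variable, at 28.3, 24.2 and 39.3 in WT and 19.0, 15.05 and 24.7 in RORγt N275D replicates 1, 2 and 3, and its call (log2 fold change -0.62, limma adjusted p = 0.0467) was lost with DESeq2 (adjusted p = 0.139) and without WT replicates 1 (limma adjusted p = 0.0745) or 3 (0.191) or RORγt N275D replicates 1 (0.0952) or 2 (0.175) (SD, n = 3 each throughout). The inhibitors *Rcan1* and *Cabin1* were thus lower while *Rcan3* and *Chp1* were higher.

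Of 11 NFAT kinase, export, import and scaffold genes tested (of 14 listed), 3 were called higher, 3 lower and 5 neither, a share called close to the 50.9% of all genes, and their median log2 fold change was 0.03. *Lrrk2*, a kinase described as holding NFAT in the cytosol with the NRON complex, rose from 833 ± 39.2 to 1364 ± 21.5 normalized reads (log2 fold change 0.71, limma adjusted p = 8.43e-09). The NFAT kinase genes *Dyrk2* (343 ± 4.54 and 440 ± 9.26; log2 fold change 0.36, limma adjusted p = 0.000168) and *Gsk3b* (1282 ± 17.8 and 1552 ± 22.2; 0.28, limma adjusted p = 6.08e-05) rose as well, whereas *Gsk3a* was lower (3111 ± 163 and 2779 ± 57.6; -0.16, limma adjusted p = 0.00528). The importin gene *Kpnb1* (17868 ± 842 and 14886 ± 163; log2 fold change -0.26, limma adjusted p = 1.95e-05) and the exportin gene *Xpo1* (5771 ± 493 and 5207 ± 114; -0.14, limma adjusted p = 0.0239) were lower (SD, n = 3 each). The call of *Xpo1* was lost without WT replicates 1 (limma adjusted p = 0.0982) or 2 (0.125) and without RORγt N275D replicates 1 (0.0523) or 2 (0.1003). It was also lost by eBayes without a trend (0.141), with a mean above 0 (0.0551) and under quantile normalization (0.401), where *Gsk3a* lost its call too (0.0942). Under quantile normalization 5 of these genes were called higher and 1 lower.

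Of 29 NFAT-dependent T cell genes tested (of 30 listed), 17 were called lower, 8 higher and 4 neither, beside 26.1% of all genes called lower and 24.7% higher. Their median log2 fold change was -0.24 beside -0.003 for all genes tested. *Il2*, the T cell growth factor gene whose promoter binds NFAT, had 10101, 10626 and 10355 normalized reads in WT against 2104, 2222 and 2100 in RORγt N275D replicates 1, 2 and 3 (log2 fold change -2.27, limma adjusted p = 3.32e-16). The activation factor *Egr3* (-1.55) and the chemokine *Ccl3* (-1.46) followed. The largest increases were those of *Tnfrsf9*, the co-stimulatory receptor 4-1BB, at 673 ± 45.7 and 2568 ± 82.8 normalized reads (SD, n = 3 each; log2 fold change 1.93, limma adjusted p = 1.42e-13), of the inhibitory receptor gene *Havcr2* (1.54), which had only 8.98 ± 2.56 and 27.6 ± 5.11 normalized reads (SD, n = 3 each), and of *Ifng* (0.81). These genes also depend on other transcription factors, and they moved in both directions.

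Of 9 genes of the NFAT5 tonicity response that were tested (of 10 listed), 4 were called higher, 4 lower and 1 neither, beside 24.7% of all genes called higher and 26.1% lower, and their median log2 fold change was 0.09. The kinase gene *Sgk1* (51.6 ± 10.01 and 76.4 ± 10.4 normalized reads, log2 fold change 0.57), the heat shock gene *Hspa1b* (264 ± 25.3 and 343 ± 15.8; 0.38) and the amino acid transporter gene *Slc38a2* (2763 ± 145 and 3377 ± 76.6; 0.29) were higher. The call of *Sgk1* was lost without WT replicate 1 (limma adjusted p = 0.0508) and RORγt N275D replicate 2 (0.05004), and under quantile normalization (0.0582). *Hspa1b* has a near-identical copy, so that its count is uncertain. The calcium-binding protein gene *S100a4* (281 ± 24.8 and 125 ± 19.4; -1.17), the inositol transporter gene *Slc5a3* (666 ± 41.2 and 514 ± 28.3; -0.37) and the aldose reductase gene *Akr1b3* (4197 ± 61.0 and 3435 ± 29.6; -0.29) were lower (SD, n = 3 each). Aldose reductase and the inositol transporter are textbook NFAT5 targets, but other genes of the same list were higher. The transporter gene *Slc6a6* was not called (log2 fold change 0.09, limma adjusted p = 0.0731).

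**Figure D4:**
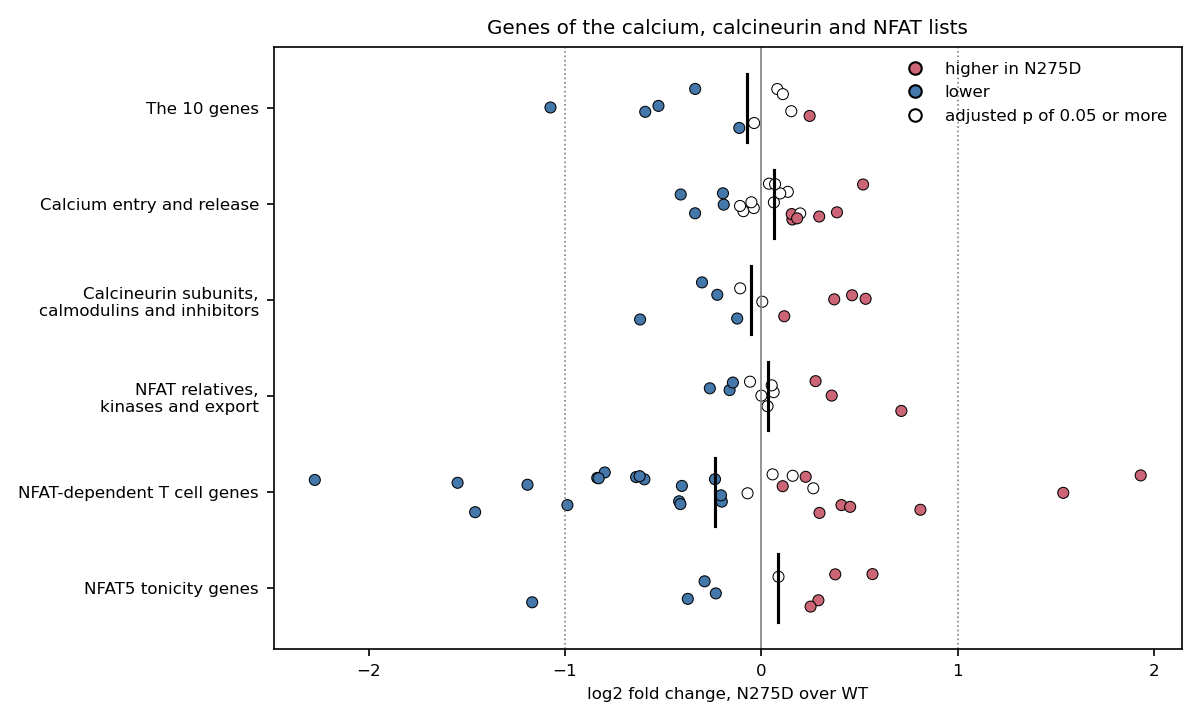
Log2 fold change of RORγt N275D over WT for the 10 genes and for each tested gene of 5 lists, 1 point a gene (vertical jitter only), filled red when called higher, blue when called lower and white when not called; black bars are list medians and dotted lines mark 2-fold. The NFAT-dependent T cell genes range from -2.27 to 1.93 with 17 lower and 8 higher, whereas no gene of the calcium, calcineurin or NFAT kinase lists reached 2-fold.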

How the data were processed

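The 6 RNA-seq libraries, 3 per genotype, were grouped by sample label. According to the methods, STAR alignment to mm10 was followed by featureCounts and a DESeq2 comparison, with versions not given in the sources used here. The signal values deposited by the authors are gene reads scaled by a single factor in each library, and 100% were whole multiples of it within 1e-06. Deposited fold changes and q-values were not used. Log2(value + 1) was tested with limma (version 3.58.1, R 4.3.3, trended prior) for genes with a mean of at least 10, with Benjamini-Hochberg adjustment. In simulated data over 11908 genes, of which 200 were changed, limma called 192 of the changed genes and 11 unchanged ones. A share of changed genes as large as the 50.9% called in these libraries was not tested. Whether the result extends to changes smaller than those simulated was not tested either. Those of *Nfatc2* and *Orai1* and the narrow calls of *Stim1* and *Ppp3ca* are among them. The simulation gave every gene the same variability beyond counting noise and held no deviating library such as WT replicate 3. Ratios between genes were tested by exact permutation. Alternatives included edgeR (4.0.16) and DESeq2 (1.42.0) on recovered reads. Named were the 10 genes, their paralogues, the 3 called genes of each list that rose most and the 3 that fell most, and the 3 genes most like *Nfatc1* and *Ppp3ca*. *Kcnn4*, *Itpr1*, *Itpr3*, *Atp2b1* and *Slc6a6* are given besides, next to named genes of the same lists. Members and lists were chosen with earlier results of these data known. Coordinates are RefSeq, GRCm38.p6 (mm10), and 16135 of 16244 genes matched. The intervals cover the spread between libraries only. The values of 2 marker genes are not reported here.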

Additional observations from a re-analysis of the deposited data

How the results depend on the processing

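The calls of *Nfatc1*, *Nfatc2*, *Rcan1* and *Orai1* kept their direction and side of the threshold in all 17 alternative fits, and 1 of the 10 genes was called at 2-fold in each; with a 1.5-fold minimum 2 were. The number of the 10 genes called higher was 1, but 0 with DESeq2, eBayes without a trend, library weights or a mean above 0, and 2 with quantile normalization (*Nfat5* and *Ppp3r1*, while *Ppp3ca* lost its call); with each library left out it ranged from 0 to 2. Quantile normalization turned *Nfatc3* to 0.036 and called 5 NFAT kinase and export genes higher and 1 lower. Over all genes the count at 2-fold was 427, and it was 703 with a mean above 0, 162 with a mean of at least 100 and 259 with a pseudocount of 10. Same-numbered libraries did not deviate together (correlations from -0.08 to 0.04), and a replicate block called 5727 genes instead of 6056 and dropped the call of *Stim1* (limma adjusted p = 0.0803). With 3 libraries a genotype, an exact permutation test cannot reach p below 0.1.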
